A study of Mus musculus with 3 samples.

Results

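The genes of the cytosolic ribosomal proteins were followed through 3 CUT&Tag peak lists from Pan02 cells, a mouse pancreatic ductal adenocarcinoma line. Members were the protein-coding genes of the RefSeq annotation of GRCm38 whose symbol is Rpl or Rps with a number, Rplp0 to Rplp2, or Rpsa. Left out were 10 Rps6k kinase genes, 1 binding-protein gene (Rps19bp1) and 6 predicted or retrotransposed copies. This left 84 of 21887 protein-coding genes, 52 of the large and 32 of the small subunit. CUT&Tag maps where a protein sits on chromatin, with a transposase tethered to an antibody that inserts sequencing adapters into nearby DNA. The libraries were Flag in Pan02 cells that stably express POH1-Flag, MYC in the same POH1-Flag cells, and MYC in Pan02 cells with the vector. POH1 is the deubiquitinase of the proteasome lid, MYC is a transcription factor, and whether the stable cells were 1 clone or a pool is not given in the sources used here. There was 1 library per group, so cell lines could not be compared over replicates, every interval covers counting error only, and PCR duplicates, if kept, would make the intervals too narrow.

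Each cytosolic ribosome has a large subunit, which forms the peptide bond, and a small subunit, which decodes the mRNA. Ribosomal protein genes are transcribed strongly in growing cells, from short promoters without a typical TATA box, and many of their mRNAs begin with a run of pyrimidines through which mTOR controls their translation. MYC, which pairs with MAX and prefers the E-box CACGTG, is known to bind many of these genes and to raise ribosome production in tumours.

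The following stretches come from promoters of members with MYC peaks nearby. In both MYC lists the summits of these genes lay outside the printed bases. In POH1-Flag cells, for example, the summit lay at −168 bp from the start at Rplp2 and at 145 bp at Rps15a. Each runs from 120 bases before a RefSeq gene start to 30 bases after it, on GRCm38, so the first transcribed base is base 121. Capitals mark the E-box CACGTG, the ETS factor motif CCGGAAG on either strand, and runs of at least 8 pyrimidines that begin within 15 bases of the start. Rplp2 and Rps25 had some of the strongest MYC peaks, Rps6 and Rps15a some of the highest ratios between the cell lines, and Rpl23 and Rpl19 hold the E-box beside the start. Rpl23 was chosen after its values were seen.
Rplp2, chr7:141447531-141447680, plus strand: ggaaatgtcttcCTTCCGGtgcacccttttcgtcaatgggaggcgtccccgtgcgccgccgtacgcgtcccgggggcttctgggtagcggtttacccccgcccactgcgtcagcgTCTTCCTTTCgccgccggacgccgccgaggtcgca
Rps25, chr9:44407594-44407743, plus strand: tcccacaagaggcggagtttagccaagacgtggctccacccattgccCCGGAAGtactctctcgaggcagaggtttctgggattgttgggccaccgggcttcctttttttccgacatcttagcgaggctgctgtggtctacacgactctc
Rps6, chr4:86857338-86857487, minus strand: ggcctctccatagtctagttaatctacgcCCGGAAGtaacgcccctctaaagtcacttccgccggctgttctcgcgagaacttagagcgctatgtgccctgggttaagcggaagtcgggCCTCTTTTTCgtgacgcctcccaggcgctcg
Rps15a, chr7:118116118-118116267, minus strand: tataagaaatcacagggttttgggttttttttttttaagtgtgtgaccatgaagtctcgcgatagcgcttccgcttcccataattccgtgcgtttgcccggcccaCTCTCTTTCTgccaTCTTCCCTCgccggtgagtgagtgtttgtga
Rpl23, chr11:97782410-97782559, minus strand: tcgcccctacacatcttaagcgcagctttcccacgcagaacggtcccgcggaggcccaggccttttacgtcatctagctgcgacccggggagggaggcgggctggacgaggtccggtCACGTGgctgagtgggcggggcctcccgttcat
Rpl19, chr11:98026590-98026739, plus strand: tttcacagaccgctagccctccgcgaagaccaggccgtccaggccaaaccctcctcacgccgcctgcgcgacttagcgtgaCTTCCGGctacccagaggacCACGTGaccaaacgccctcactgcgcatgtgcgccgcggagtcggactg

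MYC peaks lay near an end of most ribosomal protein genes in both cell lines. A peak counts as near a gene end when its summit is within 1 kb of either end of the gene. In POH1-Flag cells 74 of 84 genes (88.1%) had such a MYC peak, beside 40.0% of all protein-coding genes. In vector cells 60 of 84 (71.4%) had one, beside 28.2% of all genes. No member had its MYC peak in vector cells alone, beside 1.99% of all genes with a vector peak. With 60 members marked in vector cells, so low a share does not set the family apart. The Flag library had a peak near 1 ribosomal protein gene, Rps29, beside 0.196% of all genes. The Flag list is also the shortest, at 2936 peaks, against 22647 MYC peaks in POH1-Flag cells and 12175 in vector cells, and the background implied a relative depth of 1.05, 1.06 and 1 in that order.

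By subunit, small subunit genes carried MYC peaks more often than large subunit genes in both lists. In POH1-Flag cells the counts were 30 of 32 small subunit genes (93.8%) and 44 of 52 large subunit genes (84.6%). In vector cells they were 27 of 32 small subunit genes (84.4%) and 33 of 52 large subunit genes (63.5%). Without 7 paralogs of restricted or stress-linked use, 6 of them in the large subunit, the counts in POH1-Flag cells were 30 of 31 small and 40 of 46 large subunit genes, and in vector cells 27 of 31 small and 31 of 46 large subunit genes. Counting peaks whose −log10 q reached 5, POH1-Flag cells had 28 of 32 small subunit genes (87.5%) and 41 of 52 large subunit genes (78.8%), beside 33.9% of all genes. Vector cells had 25 of 32 small (78.1%) and 27 of 52 large subunit genes (51.9%) at that limit, beside 18.9% of all genes. At the stricter limit of 10, POH1-Flag cells had 22 of 32 small (68.8%) and 31 of 52 large subunit genes (59.6%), beside 20.1% of all genes. In vector cells the subunits were level at this limit, with 8 of 32 small and 13 of 52 large subunit genes, 25% each, beside 6.91% of all genes. These are counts of genes within libraries, and the difference between the subunits was not tested.

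**Figure D1:**
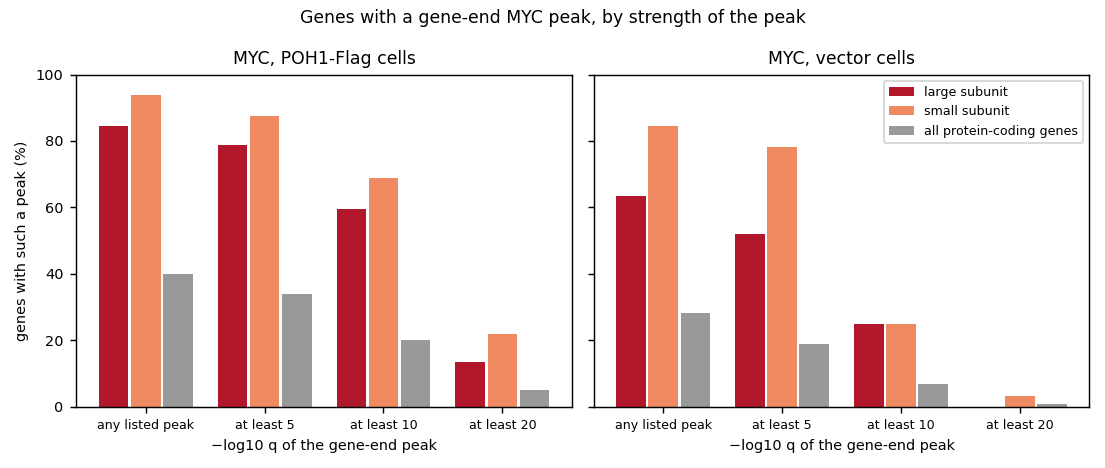
Share of genes (%) with a MYC peak near a gene end, for large subunit genes, small subunit genes and all protein-coding genes, in POH1-Flag cells (left) and vector cells (right), at any listed peak and at minimum −log10 q values of 5, 10 and 20. Both subunits stand above all genes at the first 3 limits in both panels, and the bars of the subunits are level at 25% in vector cells at a limit of 10.

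Peak height was measured as the pileup, the whole number of reads over the summit, solved from the deposited fold enrichment and −log10 p. At the ribosomal protein genes with a peak the median pileup was 27.5 reads in POH1-Flag cells (range 7 to 51) and 18 reads in vector cells (9 to 45). All genes with a gene-end peak had medians of 21 reads in POH1-Flag cells and 15 in vector cells. By subunit the medians in POH1-Flag cells were close, 28 reads for small and 27 for large subunit genes. In vector cells they were 16 reads for small and 19 for large subunit genes. Peaks were 659 bp wide in the median in POH1-Flag cells and 495 bp in vector cells, while all genes with a peak had medians of 609 bp in POH1-Flag cells and 481 bp in vector cells.

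**Figure D2:**
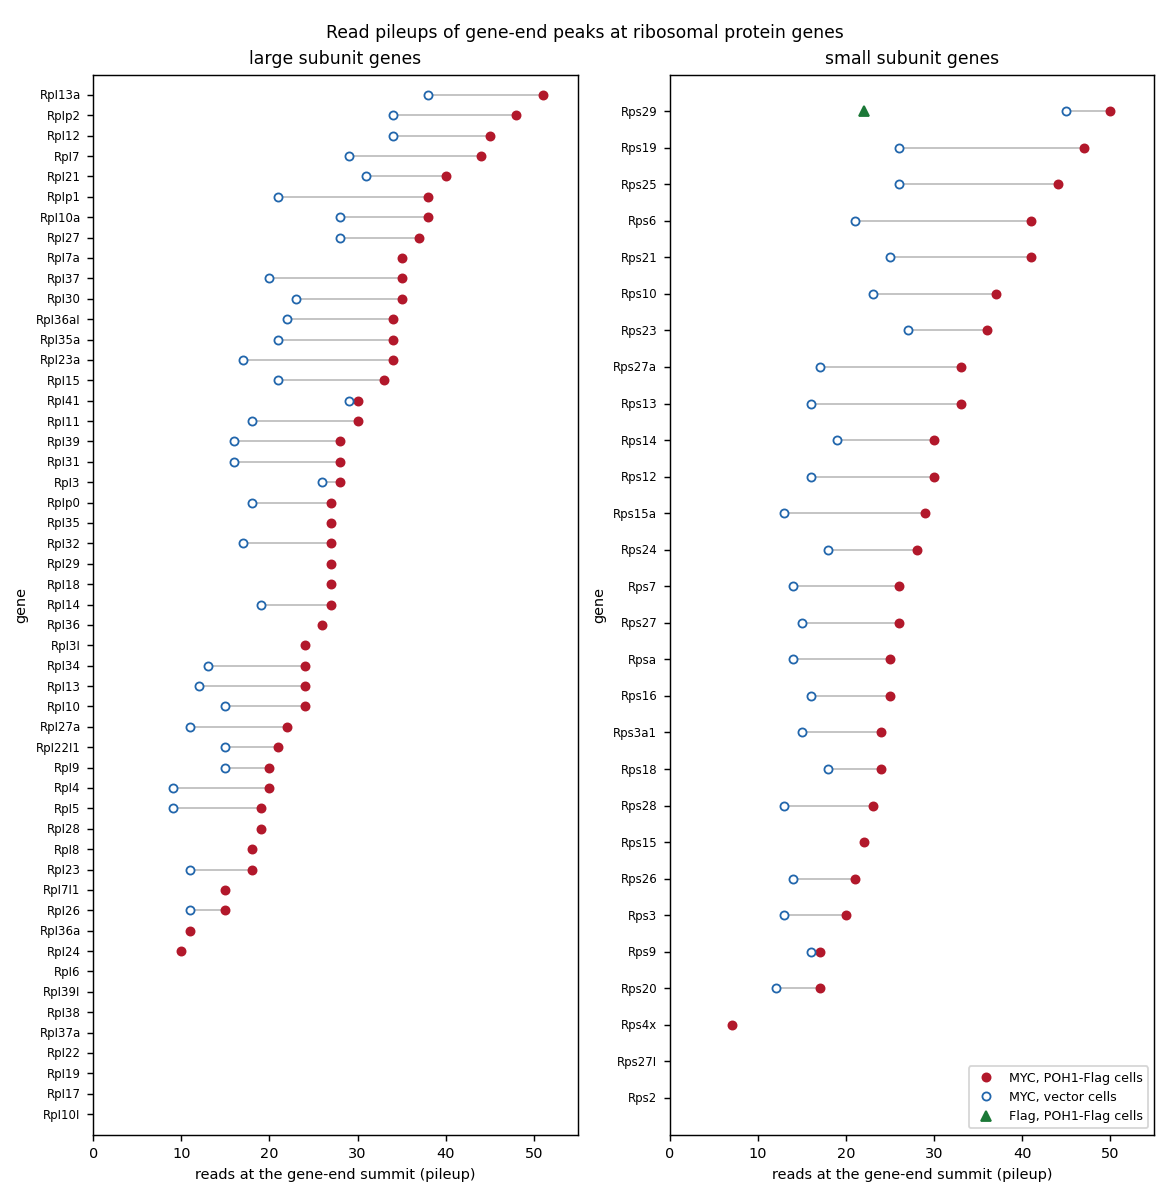
Reads at the gene-end summit (pileup, x axis) for 79 of the 84 ribosomal protein genes (y axis), large subunit left and small subunit right, ordered by MYC in POH1-Flag cells. Filled circles are MYC in POH1-Flag cells, open circles MYC in vector cells, the triangle Flag, and a gene without a symbol has no peak within 1 kb of an end. Each gene with both circles has the filled one to the right, Rpl13a reaches 51 reads and only Rps29 has a Flag peak.

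In the large subunit the strongest MYC peaks by −log10 q in POH1-Flag cells lay at Rpl37, Rpl21, Rplp2, Rpl27 and Rplp1. Rpl37 (chromosome 15, 5116613 to 5119140) had 35 reads in POH1-Flag cells against 20 in vector cells, at a site shared with Card6. Rpl21 (chromosome 5, 146832890 to 146837032) had 40 reads in POH1-Flag cells against 31 in vector cells. Rpl27 had 37 reads in POH1-Flag cells and 28 in vector cells. The vector list put Rpl21, Rplp2 and Rpl27 first again, followed by Rpl13a and Rpl12. Rpl13a (chromosome 7, 45125563 to 45128745), known in human cells for silencing inflammatory mRNAs outside the ribosome, had the highest large subunit pileups, 51 reads in POH1-Flag cells and 38 in vector cells. The remaining large subunit genes with a peak in both lists, other than those of the role groups below, ranged in POH1-Flag cells up to 44 reads (Rpl7), and Rpl7 had 29 in vector cells.

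The stalk of the large subunit, which recruits elongation factors, was marked throughout. It consists of the P proteins on their base protein Rpl12. Rplp2 (chromosome 7, 141447651 to 141451359), whose promoter is printed above, had 48 reads in POH1-Flag cells and 34 in vector cells. Rplp1, which pairs with Rplp2, had 38 reads in POH1-Flag cells against 21 in vector cells. Rplp0, which anchors both, had 27 reads in POH1-Flag cells against 18 in vector cells, and Rpl12 had 45 reads in POH1-Flag cells against 34 in vector cells. All 4 genes had a −log10 q of at least 10 in POH1-Flag cells and 3 of them, all but Rplp0, in vector cells. Of all genes 20.1% reached this limit in POH1-Flag cells and 6.91% in vector cells.

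Rpl5 and Rpl11, which with 5S rRNA form a particle that can bind and restrain MDM2, were marked in both cell lines. Rpl11 had 30 reads in POH1-Flag cells and 18 in vector cells. Rpl5 was weaker, with 19 reads in POH1-Flag cells against 9 in vector cells. Its vector summit lay 629 bp from the gene end, against 161 bp in POH1-Flag cells. Of 10 genes for proteins around the exit tunnel of the growing peptide, 6 had a gene-end peak in POH1-Flag cells, beside 40.0% of all genes, and 5 in vector cells, beside 28.2%. The 4 without one in either list were Rpl17, Rpl19, Rpl22 and Rpl38, whose peaks are described below.

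In the small subunit the leading peaks of POH1-Flag cells included those at Rps29, Rps25, Rps19 and Rps23. Rps25 (chromosome 9, 44407714 to 44410406), needed for some forms of internal initiation, had 44 reads in POH1-Flag cells and 26 in vector cells. Rps19 (chromosome 7, 24884592 to 24889811), the gene most often mutated in human Diamond-Blackfan anaemia, had 47 reads in POH1-Flag cells and 26 in vector cells. Rps23, whose protein sits at the decoding centre, had 36 reads in POH1-Flag cells against 27 in vector cells. Rps29, Rps23 and Rps25 were also among the strongest in vector cells, as was Rps10, which had 37 reads in POH1-Flag cells against 23 in vector cells.

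Rps29 (chromosome 12, 69157722 to 69159186) differed from the other members in having a Flag peak. Flag reached 22 reads there, and MYC reached 50 reads in POH1-Flag cells and 45 in vector cells. The Flag summit lay 155 bp from the gene end and the MYC summits 200 bp from it in POH1-Flag cells and 321 bp in vector cells. All 3 summits fall inside Rn7s1, a 7S RNA gene annotated at 69159295 to 69159593, and such RNA genes have many near-identical copies in the genome. How reads from such copies were placed is not given in the sources used here, and the part of the copies in these peaks was not tested.

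All of the 5 genes for the platform and decoding region of the small subunit had a MYC peak in POH1-Flag cells. In vector cells 4 had one. The shares of all genes were 40.0% in POH1-Flag cells and 28.2% in vector cells. Rps14 had 30 reads in POH1-Flag cells against 19 in vector cells, Rps26 had 21 reads in POH1-Flag cells against 14 in vector cells, and Rps28 had 23 reads in POH1-Flag cells against 13 in vector cells. Rps23 is given above, and Rps15, whose tail reaches the decoding site, had 22 reads in POH1-Flag cells and no vector peak. Around the head and mRNA entry, 7 of 8 genes had a peak in POH1-Flag cells, beside 40.0% of all genes. In vector cells 6 had one, beside 28.2%. Rpsa, also known as a laminin receptor, had 25 reads in POH1-Flag cells against 14 in vector cells. Rps21 had 41 reads in POH1-Flag cells against 25 in vector cells, and Rps20, of the head, had 17 reads in POH1-Flag cells and the lowest vector pileup of the small subunit, 12 reads. Among 18 genes whose human counterparts are mutated in Diamond-Blackfan anaemia, 18 had a peak in POH1-Flag cells, beside 88.1% of the family and 40.0% of all genes, and 16 in vector cells, beside 71.4% of the family and 28.2% of all genes. Rpl18 was among the exceptions in vector cells. Its summit in POH1-Flag cells lay 249 bp from a gene end but at −2853 bp from its listed start.

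Of 4 X-linked members all were marked in POH1-Flag cells, beside 40.0% of all genes, and 2 in vector cells, beside 28.2%. Rpl39, of the exit tunnel, had 28 reads in POH1-Flag cells and 16 in vector cells, and Rpl10, needed for late maturation of the large subunit, had 24 reads in POH1-Flag cells against 15 in vector cells. Rpl36a (11 reads) and Rps4x (7 reads, the lowest pileup of any member) had a peak in POH1-Flag cells only. Of the 7 paralogs, 4 had a gene-end peak in POH1-Flag cells (57.1%), beside 40.0% of all genes. In vector cells 2 had one (28.6%), near the 28.2% of all genes. Rpl36al had 34 reads in POH1-Flag cells against 22 in vector cells, and Rpl22l1 had 21 reads in POH1-Flag cells against 15 in vector cells. The testis paralogs Rpl10l and Rpl39l had none. None of the 6 predicted or retrotransposed copies left out of the family had a gene-end peak in any library. Of all genes 40.0% had a MYC peak in POH1-Flag cells and 28.2% in vector cells. How reads were placed between copies of a gene is not given in the sources used here.

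A peak was present in POH1-Flag cells and absent from the vector list at 14 members, 58.3% of the 24 without a vector peak, beside 17.2% of all genes without one. By subunit these were 3 of 5 small subunit genes without a vector peak (60.0%) and 11 of 19 large subunit genes (57.9%). By pileup in POH1-Flag cells those of the large subunit were Rpl7a (35 reads), Rpl18, Rpl29 and Rpl35 (27 reads each), Rpl36 (26 reads), the muscle paralog Rpl3l (24 reads), Rpl28 (19 reads), Rpl8 near the peptidyl transferase centre (18 reads), Rpl7l1 (15 reads), Rpl36a (11 reads) and Rpl24 of a bridge between the subunits (10 reads). Those of the small subunit included Rps15 (22 reads) and Rps4x (7 reads). At Rpl18 and Rpl3l the summit lay far from the nearest listed start, at −2853 and 3969 bp. None of the 14 peaks overlapped a vector peak. The rule makes such overlap unlikely, since these genes have no vector summit within 1 kb of either end. The vector summit nearest to a gene end was 1188 bp away at Rpl7l1, 2929 bp away at Rpl7a and farther at the other 12.

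These 14 peaks were lower in the median than those of members marked in both lists. Their median pileup in POH1-Flag cells was 20.5 reads, against 29.5 reads at the 60 members marked in both. All genes showed the same direction, with medians of 14 reads where marked in POH1-Flag cells only and 25 reads where marked in both. The local background of the peak caller was alike, with medians of 3.32 reads at the 14 and 3.27 at the 60. Among the 14 it reached 6.12 reads at Rpl35, 5.68 at Rpl28, 5.51 at Rpl36 and 5.35 at Rpl18, and 19 reads at Rpl28 gave a −log10 q of 2.98. Rpl7a, with a local background of 5.19 reads, had the highest −log10 q of the 14, 14.3. The lowest pileup anywhere in the vector list was 6 reads, and what the vector library held at these genes below its threshold cannot be read from a peak list. With the POH1-Flag list cut to its 12175 strongest peaks, as many as the vector list holds, 9 members were left in place of 14, beside 8.67% of all genes without a vector peak.

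Of the 10 members without a MYC peak near either end, 6 had summits inside the gene, and 5 of these lay at a listed internal start. Rpl19 had a summit 97 bp after a listed start with 38 reads in POH1-Flag cells and at 99 bp with 26 reads in vector cells, although both were over 3 kb from a gene end. Rps2, near the mRNA entry, had 36 reads in POH1-Flag cells at −27 bp from a start and 25 reads in vector cells at −193 bp. Rpl38 had 26 reads in POH1-Flag cells against 17 in vector cells, and Rpl22 had 23 reads in POH1-Flag cells against 13 in vector cells. Rps27l, a p53-responsive paralog, had 23 reads in POH1-Flag cells against 16 in vector cells. Rpl17 had 17 reads in POH1-Flag cells and 12 in vector cells inside the gene. The 5 ratios at listed starts ran from 1.47 at Rps2 and Rps27l to 1.81 at Rpl22, and every interval held 1. Counting a gene end or a listed start, a choice made after seeing the data, 79 of 84 members were marked in POH1-Flag cells, beside 43.3% of all genes, and 65 in vector cells, beside 30.5%. All 32 small subunit genes were then marked in POH1-Flag cells, against 47 of 52 large subunit genes. Without any summit within 10 kb in either list were Rpl6, Rpl37a, Rpl10l and Rpl39l.

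By the strongest gene-end peak of each member, few were close to the 1 kb limit itself. The farthest inside in POH1-Flag cells were Rpl29 (609 bp), Rpl3l (511 bp, beside the end of its neighbour Msrb1) and Rpl7 (418 bp). In vector cells they were Rpl4 (792 bp), Rpl5 (629 bp) and Rps18 (593 bp). Weaker second peaks lay farther out at Rpl4 (769 bp) and Rps18 (676 bp) in POH1-Flag cells and at Rpl7 (939 bp) in vector cells. The nearest outside in POH1-Flag cells were Rpl38 (1146 bp), Rpl22 (1466 bp) and Rpl17 (1648 bp), and in vector cells Rpl38 (1169 bp), Rpl7l1 (1188 bp) and Rps27l (1248 bp).

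Most MYC summits of the members lay at the gene start. A start was listed for 64 members, of which 55 had a gene-end peak in POH1-Flag cells and 45 in vector cells. Within 250 bp of the nearest listed start lay 51 of the 55 summits (92.7%) in POH1-Flag cells and 39 of the 45 (86.7%) in vector cells. For all genes these shares were 76.7% in POH1-Flag cells and 73.6% in vector cells. Summits fell on both sides of the start, with 26 upstream and 29 downstream in POH1-Flag cells and 25 upstream and 20 downstream in vector cells. All 22 small subunit summits of POH1-Flag cells were within 250 bp, as were 29 of 33 large subunit summits. Where both lists had overlapping peaks, the summits differed in position by 61 bp in the median over 58 members, against 68 bp over all 5900 such genes.

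**Figure D3:**
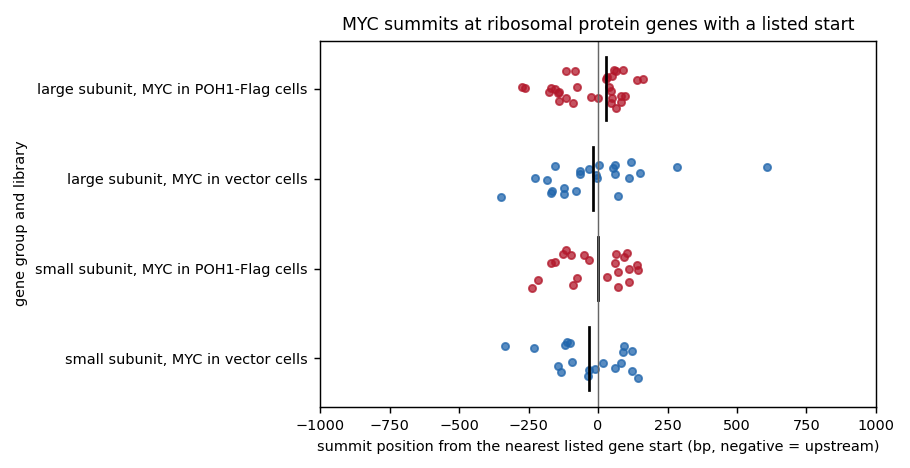
Position of each MYC summit from the nearest listed gene start (bp, negative is upstream) for large and small subunit genes in POH1-Flag and vector cells, with the median as a bar; summits beyond 1 kb (2 in POH1-Flag cells, 2 in vector cells) are outside the plot. Points gather on both sides of 0, and the medians run from −32 to 28 bp.

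Several members had a peak at each end or shared their peak with a neighbour. Rpl4 had 20 reads at its start, shared with Zwilch, and 15 reads near its far end in POH1-Flag cells, and in vector cells 8 reads at the start and 9 near the far end. Its peaks at the start had a ratio of 2.56 (95% interval 1.08 to 6.71), from a pairing added after seeing the data. Rps18 had 24 reads near one end and 22 near the other in POH1-Flag cells, against 16 near the first and 18 near the other in vector cells. Rpl41, the gene of the smallest ribosomal protein, had 30 reads at one end and 28 at the other in POH1-Flag cells, against 29 and 23 at those ends in vector cells. At 16 of the 74 marked members the summit was also within 1 kb of an end of another protein-coding gene. Examples are Lrsam1 at Rpl12, Med22 at Rpl7a, Pidd1 at Rplp2, Trappc4 at Rps25 and Ndufa7 at Rps28. The list cannot assign such a peak to one of the genes, and the share of such sites over all genes was not counted.

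Where the strongest gene-end peaks of both MYC lists overlapped, at 58 members, the pileup was higher in POH1-Flag cells at every one. The same was true of 98.5% of the 5900 genes with such a pair, so the direction was shared with nearly all genes. Pileups were scaled by the genome-wide background, 0.826 reads in POH1-Flag cells and 0.845 in vector cells. Over the 58 members the median scaled ratio, POH1-Flag over vector, was 1.63, a log2 ratio of 0.71, beside 1.65 and 0.72 over all such genes. Relative to that shift of all genes the members' median was −0.02. The middle 50% of members lay between log2 ratios of 0.52 and 0.85, and of all genes between 0.50 and 0.95.

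The small subunit had a median log2 ratio of 0.77 over 26 genes and the large subunit 0.65 over 32 genes. The middle 50% overlapped, 0.66 to 0.88 in the small and 0.47 to 0.84 in the large subunit. The whole range ran from 0.12 to 1.19 in the small and from 0.08 to 1.11 in the large subunit. The 95% interval lay above 1 at 8 of 26 small subunit genes and at 3 of 32 large subunit genes. Together these are 11 of 58 members (19%), beside 26.0% of all such genes, and no interval lay below 1. With the background divided by the fragment length of each library 5 members were left, and with 99% intervals none was. Counts this low rest on pileups of 9 to 51 reads, at which single ratios carry wide error.

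The highest small subunit ratios were at Rps15a, Rps13, Rps6 and Rps27a. Rps15a (chromosome 7, 118104374 to 118116147) had 29 reads in POH1-Flag cells and 13 in vector cells, a ratio of 2.28 (95% interval 1.15 to 4.78). Rps13 had 33 reads in POH1-Flag cells against 16 in vector cells (2.11, 1.13 to 4.11). Rps6, whose protein is phosphorylated by S6 kinase downstream of mTOR, had 41 reads in POH1-Flag cells against 21 in vector cells (2.0, 1.15 to 3.56). Rps27a, which encodes its protein as a fusion with ubiquitin, had 33 reads in POH1-Flag cells against 17 in vector cells (1.99, 1.08 to 3.80), at a site shared with Clhc1. Other intervals above 1 were those of Rps12 (1.92, 1.01 to 3.77), Rps19 (1.85, 1.12 to 3.11), and Rps25 (1.73, 1.04 to 2.93).

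Among the strongest-peak pairs of the large subunit Rpl5 had the highest ratio, 2.16, with an interval that held 1 (0.931 to 5.42). Rpl23a, a contact of the signal recognition particle at the tunnel exit, had 34 reads in POH1-Flag cells and 17 in vector cells (2.05, 1.11 to 3.91). Rpl27a and Rpl13 had the same ratio of 2.05 with intervals that held 1. Rpl27a had 22 reads in POH1-Flag cells against 11 in vector cells, and Rpl13 had 24 reads in POH1-Flag cells against 12 in vector cells. Rplp1 (1.85, 1.06 to 3.32) and Rpl37 (1.79, 1.01 to 3.27) were the others of these pairs with an interval above 1, beside the peaks at the start of Rpl4 given above.

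The lowest ratios were close to 1. They were 1.06 at Rpl41 (0.614 to 1.83) and 1.10 at Rpl3, a protein near the peptidyl transferase centre, with 28 reads in POH1-Flag cells and 26 in vector cells (0.623 to 1.96). Rpl21 (1.32) and Rpl12 and Rpl27 (1.35 each) followed. Among the lowest of the small subunit, Rps9 had 17 reads in POH1-Flag cells against 16 in vector cells (1.09, 0.516 to 2.30), and Rps29 had a ratio of 1.14 (0.745 to 1.74). Rps23 had a ratio of 1.36 (0.805 to 2.34). Every one of these intervals held 1, so no difference could be detected there at these read counts.

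**Figure D4:**
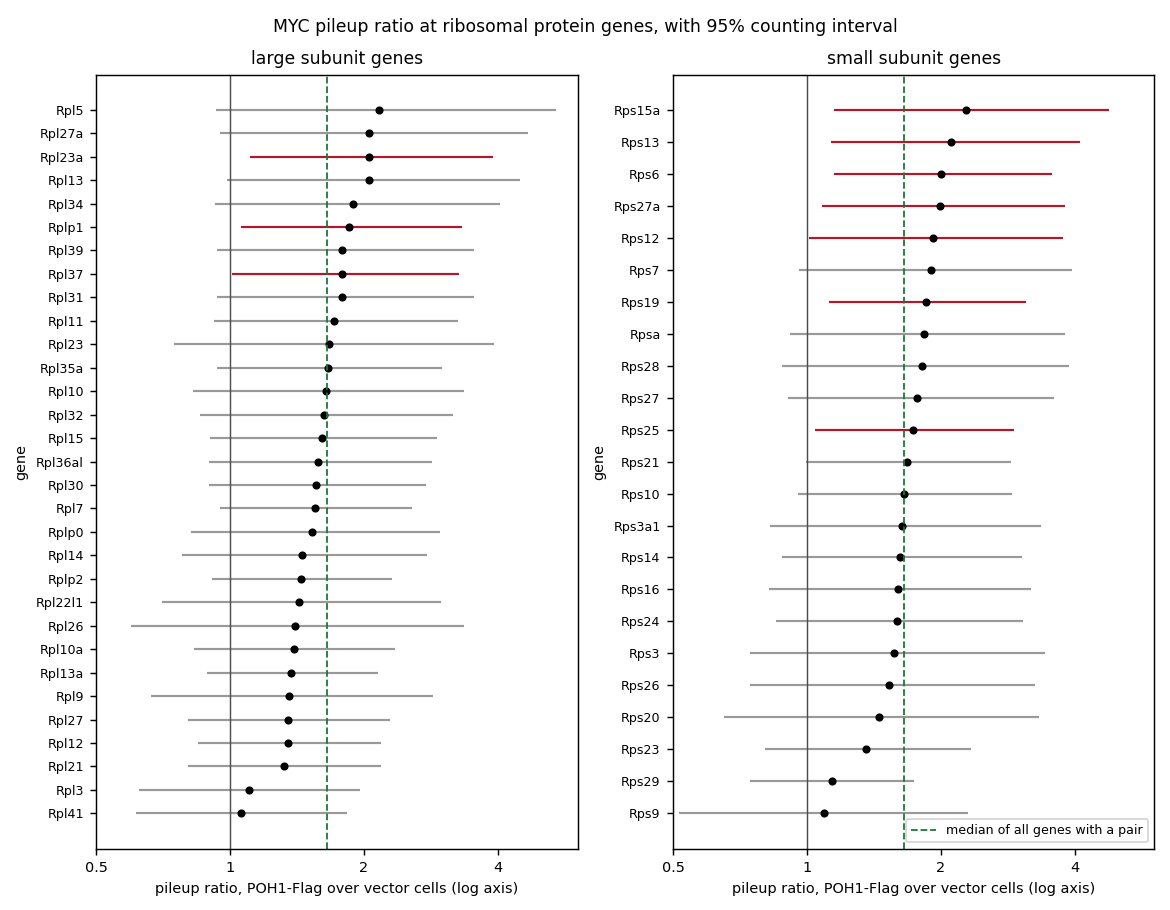
MYC pileup ratio of POH1-Flag over vector cells (x axis, log scale) with its 95% counting interval at 54 of the 58 ribosomal protein genes with overlapping peaks, large subunit left and small subunit right; red intervals lie above 1 and the dashed line is the median of all genes with a pair, 1.65. Points run from 1.06 to 2.28 on both sides of the dashed line, with 3 red intervals in the large and 7 in the small subunit.

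Ratios were lower where the vector pileup, their denominator, was higher, in members and in all genes alike. At 22 members with 13 to 17 vector reads the median log2 ratio was 0.84, beside 0.75 over 1830 genes of that range. At 14 members with 18 to 24 reads it was 0.69, beside 0.68, and at 14 members with 25 to 35 reads it was 0.46, beside 0.58.

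The promoters themselves rarely held the canonical E-box. Within the window from 250 bases before to 50 after a listed start, CACGTG was found in 6 of 64 members (9.38%), beside 8.91% of 17492 genes. The 6 were Rpl13a, Rpl14, Rpl19, Rpl23, Rpl34 and Rps19. With the noncanonical form CACGCG counted too, on both strands, 17 of 64 (26.6%) had a match, beside 20.8%. Members with CACGTG did not all have high peaks. The MYC summit was 21 bp from the motif at Rpl13a, with 51 reads in POH1-Flag cells, and 152 bp from it in vector cells, with 38 reads. At Rpl19 it was 113 bp away in POH1-Flag cells and 115 bp in vector cells. Rpl23, with the motif across its start, had 18 reads at 63 bp in POH1-Flag cells and 11 reads at 151 bp in vector cells. The median pileup in POH1-Flag cells was 27 reads at the 5 members with the motif and a gene-end peak. It was 26.5 reads at 50 members without the motif. In vector cells these medians were 19 and 16 reads. Of members with the motif 83.3% had a gene-end peak in POH1-Flag cells, and of those without 86.2%. In vector cells these shares were 83.3% and 69.0%. Among all genes they were 56.8% and 39.4% in POH1-Flag cells, and 44.6% and 27.6% in vector cells. These differences were not tested. The member with the motif but no gene-end peak was Rpl19, whose summits lay at an internal start. Rpl22, Rpl38, Rps2 and Rps27l lack the motif and were missed by the gene-end rule in the same way.

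Other letters were more frequent. The ETS motif CCGGAAG was in 26 of 64 member promoters (40.6%), 15 of 40 of the large and 11 of 24 of the small subunit, beside 12.9% of all genes. AAGATGG, a core of the YY1 site, was in 10 of 64 (15.6%), beside 7.18%. A run of at least 8 pyrimidines that begins within 15 bases of the start was in 26 of 64 (40.6%), with 16 of 40 in the large and 10 of 24 in the small subunit, beside 15.5% of all genes. Such runs are in capitals at the starts of Rplp2, Rps6 and Rps15a above. A match describes the letters of the promoter and does not show binding by a factor.

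Genes that work with the ribosomal proteins also carried MYC peaks. Rack1 and Fau, whose products are also ribosomal proteins, had MYC peaks in both cell lines. Fau, which encodes a small subunit protein as a fusion, had 34 reads in POH1-Flag cells and 14 in vector cells (ratio 2.48, 1.30 to 5.01). Rack1, a scaffold on the small subunit, had 22 reads in each cell line. Of 25 chaperones and assembly factors, 25 had a gene-end peak in POH1-Flag cells, where 40.0% of all genes had one, and 20 in vector cells, where 28.2% did. Their median log2 ratio was 0.84 over 19 pairs, beside 0.71 over the members and 0.72 over all genes, and the difference was not tested. The strongest of them was Gnl3, nucleostemin, with 51 reads in POH1-Flag cells against 38 in vector cells. Regulators of the translation of ribosomal protein mRNAs had a peak at 11 of 15 genes in each cell line (73.3%), beside 40.0% of all genes in POH1-Flag cells and 28.2% in vector cells. Mtor and its partner Rptor were marked in POH1-Flag cells only (17 and 14 reads), Tsc2 and Rps6kb2 in vector cells only (9 and 11 reads), and Larp1 and Larp4 in neither.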

How the data were processed

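Peak lists of 3 CUT&Tag libraries were analysed, 1 per group as the titles give them. Per the submitters' processing notes, MACS2 2.2.7.1, BWA 0.7.17-r1188, Trim Galore 0.6.6 and FastQC 0.11.9 were used with GRCm38/mm10. The sources used here give no parameters, no control library and no handling of duplicates. The authors deposited 1 list per library with no header line. Its columns, by the narrowPeak layout, are the authors' fold enrichment (a linear ratio), −log10 p and −log10 q at the summit, positions in bp and a score of 10 times the −log10 q. The deposited lists reach a −log10 q as low as 1.36 (Flag), 1.3 (MYC in POH1-Flag cells) and 1.3 (MYC in vector cells).

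Pileup k and local background λ follow from 2 deposited values, the fold, (k + 1)/(λ + 1), and the Poisson p of over k reads, and this gave a whole k, within 0.01 of a read step, for 100% of peaks. The lowest λ of a list served as genome-wide background. Relative depth is that background per bp of the smallest peak width. Ratios carry exact conditional Poisson 95% intervals, for counting error only. Genes came from RefSeq GRCm38.p6. For each gene and list the gene-end peak of highest −log10 q was used, and a pair is 2 such peaks that share at least 1 bp. Promoter sequences and starts, from RefSeq (GRCm38.p6), matched 64 of the 84 members.

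Members and lists were chosen with earlier results of these data known. Genes named are the 5 strongest of each subunit in each MYC list, the 4 highest and lowest ratios, all members marked in 1 MYC list or in none, those with a Flag peak or next to the 1 kb limit, and those of short role lists. Some genes that this rule names are not reported here and are not drawn in the plots. Motifs other than CACGTG and CACGCG were added after seeing the data, as were the listed starts as extra ends, the removal of paralogs and another pairing of peaks. Steps were tested on simulated data. Python 3.11.15, numpy 2.4.6, pandas 2.3.3, scipy 1.17.1 and matplotlib 3.10.9 were used.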

Additional observations from a re-analysis of the deposited data

How the results depend on the processing

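Counts of marked members in POH1-Flag cells stayed within 1.5 times of 74 under all alternatives run, from 53 (−log10 q of at least 10) to 79 (summits within 2 kb, or listed starts added). In vector cells a −log10 q of at least 10 left 21 members, 13 of the large and 8 of the small subunit; the other alternatives gave 50 to 66. Members marked in POH1-Flag cells only numbered 32 at that limit (18 large, 14 small; 14.3% of all genes without such a vector peak), 9 with lists of equal length (7 large; 8.67%) and 9 with listed starts alone (7 large; 18.9%), which cover 64 members. The Flag count was then 0, since Rps29 has no listed start. Centred on all genes, the median log2 ratio was −0.02 for all members, −0.08 for the large and 0.04 for the small subunit. Intervals above 1 numbered 5 per fragment length (1 large, 4 small), 0 at 99% in all 3 groups, and 9 to 12 otherwise. In the 150 bases before the start and 50 after, CACGTG was in 3 members, 2 of the large subunit. Medians of the log2 ratio otherwise ran from 0.59 to 0.71 for all members. Pileups of about 20 reads limit every single ratio. No paired analysis was possible because each group has 1 library.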
